A study of Mus musculus with 161 samples.

Results

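The nuclear genes for the subunits of the mitochondrial respiratory chain were followed through 3 stages of mouse monocyte development. They were taken from a single-cell expression table by their gene symbols, which begin with Nduf followed by a, b, c, s or v and a digit, are Sdha to Sdhd, or begin with Uqcr, with Cox and a digit from 4 to 8, or with Atp5. The symbols matched 87 of 43280 rows. Atp5l2-ps, Atp5l-ps1 and Atp5l-ps2, 3 rows marked as pseudogenes, were left out, as were 4 rows listed at 0 in every cell, Cox7b2, Cox8b, Cox8c and Ndufa4l2. The remaining 80 genes comprise 36 of complex I, 4 of complex II, 8 of complex III, 15 of complex IV and 17 of complex V. By symbol, 79 of the 80 were found in GENCODE M21, each annotated as protein-coding, and Atp5sl was not found there.

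Complexes I and II feed electrons from NADH and succinate into the chain, complex III passes them on to cytochrome c, and complex IV transfers them to oxygen. Complexes I, III and IV pump protons across the inner mitochondrial membrane, and complex V, the ATP synthase, uses the resulting gradient to make ATP. A few core subunits of complexes I, III, IV and V are encoded in the mitochondrial genome, and all the others, including the whole of complex II, are nuclear genes whose products are imported. Some nuclear subunits exist as paralogs used in particular tissues, such as the heart and muscle forms of complex IV subunits.

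The cells are primary, untreated C57BL/6 mouse cells, captured singly on a Fluidigm C1 microfluidic chip, with mRNA primed by oligo-dT. There were 66 common monocyte progenitors (cMoP), the bone marrow (BM) stage committed to monocytes, sorted as CD117+ CD115+ Ly6C+ cells negative for lineage markers and CD135. The 57 BM monocytes met the same criteria but lacked CD117, and the 38 blood monocytes were CD115+ CD11b+ cells with high Ly6C. Age, sex and animal are not given for any cell, so each population counts as 1 sample, cells are not replicates, and no test between populations was run. Differences below describe these cells, and SDs and ranges are over cells.

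Values are TPM, transcript abundances scaled for length and to a fixed total per cell, which keep no read depth, so that sequencing depth is unknown. For cMoP, BM and blood monocytes the median numbers of genes above 1 TPM per cell were 6662, 4719 and 4320. In these cells, 11 cMoP libraries carried 16.6% to 47.7% of their TPM on mitochondrially encoded genes, and 6 of those also had a ribosomal protein share under 1/3 of the median of their population, as had 1 blood monocyte library. These 12 libraries stand apart, and the main counts and medians are given with and without them. Flow cell and lane separate 60 of the cMoP from all monocytes and 6 cMoP have no flow cell in their labels, so cMoP and flow cell cannot be told apart, while BM and blood monocytes share 1 lane. A median summed TPM of 18933 for 8 cMoP markers, against 8.23 in BM and 7.25 in blood monocytes, and of 7084, 63278 and 65883 for 8 monocyte markers, go with the labels. Of the other cell types checked, a list of 5 B-cell genes had median sums of 1.04, 1.15 and 1.61 TPM and highest sums of 15.5, 7.74 and 10.8 TPM. Of these genes, the defining Cd79a and Pax5, like the T- and NK-cell genes Cd3e, Trac and Ncr1, were listed at 0 in all cells, as were the eosinophil genes Prg2 and Epx. The T- and NK-cell list of 6 genes, which includes Nkg7, had a median sum of 113 TPM in cMoP and 0 in both monocyte populations. Basophil and mast cell genes exceeded 10 TPM in sum in 11 cMoP and in no monocyte, erythroid genes in 14 cMoP, 2 BM and 1 blood monocyte, and neutrophil genes in 22, 33 and 20 cells. The part of such RNA in the differences was not tested.

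Regulatory sequence next to a few members is shown first. The 3 genes for ATP synthase subunit c, which encode the same mature protein, were taken because they differed in their levels. Cox6a1 and Uqcrh were taken because, with all libraries, they were among the 4 members whose mean log level was not lower in BM monocytes than in cMoP. Without the libraries that stand apart, all 78 of the genes compared were lower. RefSeq promoter windows, 250 bases before to 50 bases after a transcript start in GRCm38.p6, were found for 67 of the 80 genes, 3 of them under a newer symbol. They were searched on both strands for 3 motifs of factors known to act on respiratory genes: the NRF-1 core GCATGCG, the ETS core CCGGAAG bound by GABP, and the YY1 core AGATGGC. Capitals below mark a match on either strand, and all stretches lie on the minus strand. Each stops before the annotated exon at the start, except the Atp5g2 NRF-1 match, which lies in that exon.
Atp5g1, chr11:96075671-96075881: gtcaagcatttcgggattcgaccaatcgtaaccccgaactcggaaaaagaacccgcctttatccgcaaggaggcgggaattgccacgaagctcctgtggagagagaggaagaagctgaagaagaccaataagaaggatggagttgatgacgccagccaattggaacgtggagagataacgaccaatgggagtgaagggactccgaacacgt
Atp5g2, chr15:102671128-102671297: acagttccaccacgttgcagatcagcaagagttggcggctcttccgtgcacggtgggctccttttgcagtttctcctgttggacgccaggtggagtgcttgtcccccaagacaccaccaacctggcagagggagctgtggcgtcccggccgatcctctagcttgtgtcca
Atp5g2 NRF-1 match, chr15:102671069-102671098: gctccggccgCGCATGCGcagagccttccc
Atp5g3, chr2:73911327-73911576: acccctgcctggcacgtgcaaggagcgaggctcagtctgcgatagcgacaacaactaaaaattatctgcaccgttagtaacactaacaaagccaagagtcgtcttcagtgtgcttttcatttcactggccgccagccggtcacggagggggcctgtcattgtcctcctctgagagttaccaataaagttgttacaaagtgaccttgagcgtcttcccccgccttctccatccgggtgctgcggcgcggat
Cox6a1, chr5:115348982-115349208: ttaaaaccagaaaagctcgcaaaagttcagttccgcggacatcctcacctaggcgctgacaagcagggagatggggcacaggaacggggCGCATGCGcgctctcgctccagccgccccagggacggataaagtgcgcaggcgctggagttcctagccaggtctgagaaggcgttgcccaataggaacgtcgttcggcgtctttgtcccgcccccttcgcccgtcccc
Uqcrh, chr4:116075072-116075320: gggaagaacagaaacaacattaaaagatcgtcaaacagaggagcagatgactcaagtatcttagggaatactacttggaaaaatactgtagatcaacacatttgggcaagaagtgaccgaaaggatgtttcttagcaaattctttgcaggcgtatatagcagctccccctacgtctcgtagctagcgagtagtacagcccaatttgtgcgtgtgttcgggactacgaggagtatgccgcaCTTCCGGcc
Of the subunit c genes, Atp5g2 held an NRF-1 core on both strands, in the bases from 41 to 34 before its start, and the windows of Atp5g1 and Atp5g3 held none of the 3 motifs. The Atp5g2 stretches lie within the annotated span of the gene, the match in an exon. Cox6a1 held an NRF-1 core on both strands, in the bases from 161 to 154 before its start, and an ETS core in bases 16 to 10, within its annotated exon. Uqcrh held an ETS core 10 to 4 bases before its start. Ndufa6 and Atp5d, the rest of the 4 members, are not shown. The window of Ndufa6 held an NRF-1 core and that of Atp5d none of the 3 motifs.

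Over the 67 windows, the NRF-1 core was present in 11 (16.4%), against 7.32% of 8761 genes measured in these cells and 4.01% of 27025 genes with a window. The 11 were Atp5g2, Atp5j, Atp5k, Atp5l, Cox6a1, Ndufa6, Ndufa8, Ndufa11, Sdhb, Uqcr11 and Uqcrc1. The YY1 core was also present in 11 (16.4%, against 8.67% and 7.31%), among them Ndufs4, Ndufs6, Ndufs7 and Ndufb8. The ETS core was present in 16 (23.9%), close to the 21.1% of measured genes and above the 9.93% of all genes. Atp5j, Atp5k, Atp5l, Cox6a1, Sdhb and Uqcr11 held both the NRF-1 and the ETS core, and 36 of the windows held none of the 3 motifs. These are matches of letters in a fixed window and not measured binding.

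The summed TPM of the 80 genes was highest in cMoP and lowest in blood monocytes, with ranges that overlapped widely. It ran from 1711 through a median of 24916 to 31688 TPM in cMoP, from 9489 through 18580 to 27793 in BM monocytes, and from 642 through 14870 to 24747 in blood monocytes. The medians correspond to 2.49%, 1.86% and 1.49% of all TPM in a cell. Without the 12 libraries that stand apart, the lowest cMoP value was 17026 and the medians were 25349, 18580 and 15110 TPM. That lowest value of the 55 cMoP lay close to the median of the BM monocytes.

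Each complex had its highest median in cMoP and its lowest in blood monocytes, except that without the libraries that stand apart complex III had 2252 TPM in BM and 2253 in blood monocytes. Complex I sums had medians of 7867, 6212 and 4549 TPM in the order cMoP, BM monocytes and blood monocytes, and complex V sums 7432, 5338 and 3969. Complex III had 3267, 2252 and 2224, and complex II 1022, 652 and 480. Complex IV differed least, with 4720, 4303 and 3829 TPM. As a share of the summed TPM of the 80 genes, complex IV was therefore larger in the later stages, at a median of 19.9%, 22.6% and 24.2%, and complex II smaller, at 4.18%, 3.47% and 2.93%. Complex I made up 32.6%, 31.5% and 30.4%, and complex V 29.7%, 27.6% and 25.9%. Cells of each population spread over a wider range than these medians, for complex IV from 6.57% to 57.98% in cMoP, from 9.50% to 52.3% in the BM monocytes and from 9.54% to 40.3% in the blood monocytes.

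**Figure D1:**
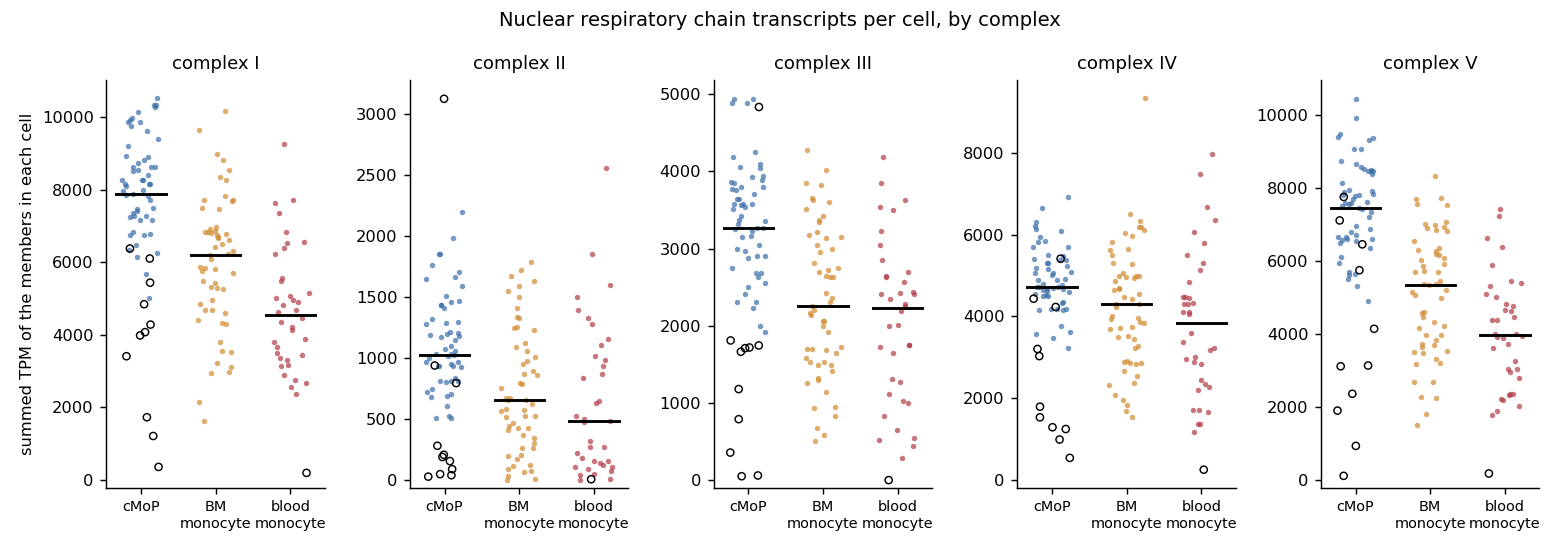
Summed TPM of the members of each complex (y axis, separate linear scales) in every cell of the 3 populations; each point is a cell, open circles are the 12 libraries with a high mitochondrial or low ribosomal share, and bars are medians over all cells. Complex I medians step from 7867 to 6212 to 4549 TPM, complex IV medians only from 4720 to 4303 to 3829 TPM.

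The share of cells in which a subunit was seen also differed between stages. To count as measured, a gene had to exceed 1 TPM in 10% or more of the cells of any population, which held for 78 of the 80, all but Cox6a2 and Cox7a1. It held for 75 in each of the 3 populations. Over the 78, the share of cells above 1 TPM had a median of 93.9% for cMoP, 82.5% for BM monocytes and 68.4% for blood monocytes, against 40.9%, 22.8% and 21.1% for all 14003 measured genes. Among measured genes with a mean of at least 50 TPM, a better match to these abundant transcripts, it was 86.4%, 66.7% and 57.9%. A share of 90% or more was reached by 59 of the 78 in cMoP, by 23 in BM monocytes and by 8 in blood monocytes. The median cell had 75 of the genes above 1 TPM among cMoP, 61 among BM monocytes and 52.5 among blood monocytes. With the libraries that stand apart left out, 52 of the 78 were above 1 TPM in every cMoP, 5 in every BM monocyte and 2 in every blood monocyte.

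**Figure D2:**
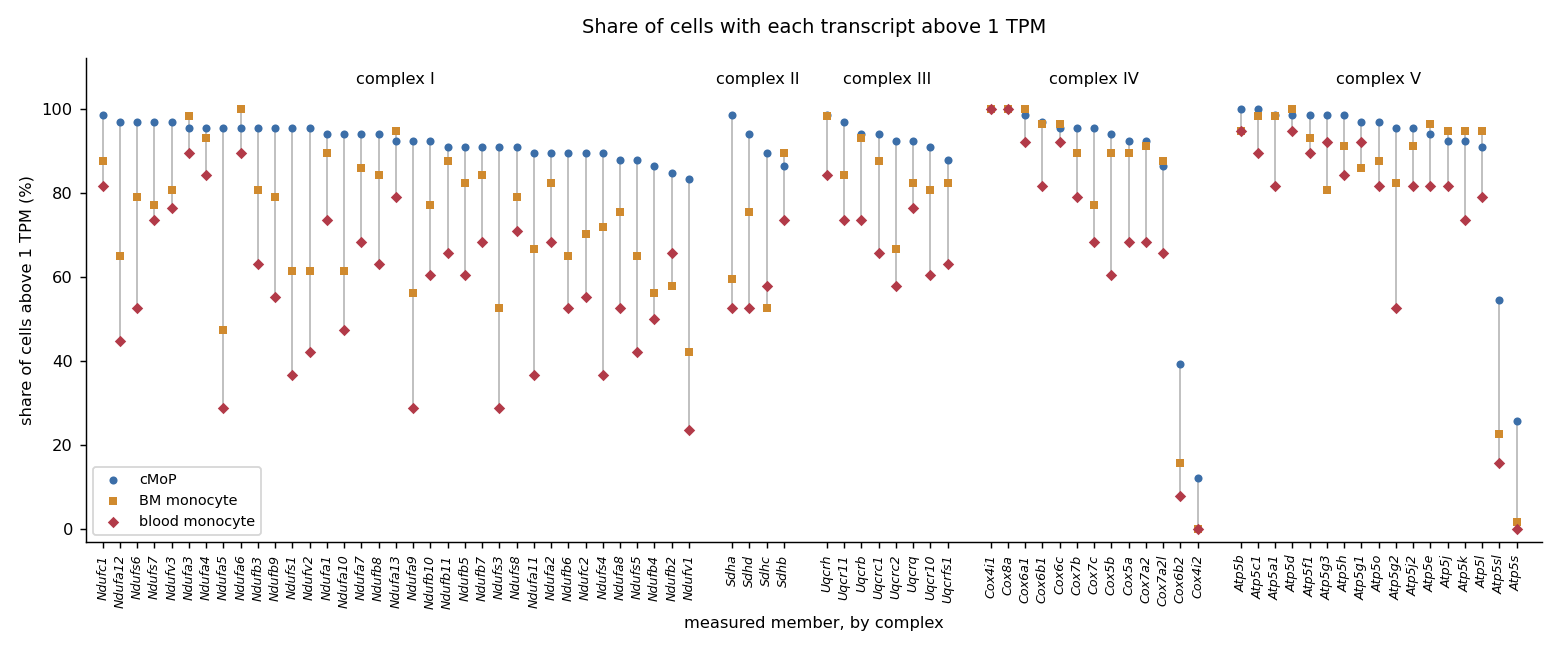
Share of cells above 1 TPM (y axis, %) for the measured genes that are reported singly (x axis, grouped by complex and ordered by the cMoP share), with a symbol for each of the 3 populations; the grey line joins the 3 shares. Cox4i1 and Cox8a stay at 100%, while complex I genes such as Ndufv1 spread from 83.3% to 23.7%.

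Populations were compared by averaging log2(TPM + 1) over cells and subtracting the earlier from the later stage, which weighs cells without the transcript heavily. From cMoP to BM monocytes, 74 of the 78 genes were lower and 52 were lower by more than 2-fold, with a median difference of -1.44. Among all 14003 measured genes 30.8% were lower by more than 2-fold, with a median of -0.45, and among the 3067 of at least 50 TPM 51.2%, with a median of -1.04. The share of the respiratory genes, 66.7%, was thus above both. None was higher by more than 2-fold, against 3.94% of all measured genes and 12.8% of those of at least 50 TPM. In the absence of the libraries that stand apart 78 of 78 were lower and 64 by more than 2-fold (82.1%, median -2.03). Of all measured genes 35.1% were then lower by more than 2-fold, and of those of at least 50 TPM 59.9%, with a median of -1.42.

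From BM to blood monocytes, 73 of the 78 were lower, 4 were higher and Cox4i2 was listed at 0 in both. Lower by more than 2-fold were 47, with a median difference of -1.14, against 9.66% of all measured genes (median -0.10) and 32.1% of those of at least 50 TPM (median -0.56). Atp5g3 alone was higher by more than 2-fold (1.28%), against 1.96% of all measured genes and 5.22% of those of at least 50 TPM. Without the blood library that stands apart 40 were lower by more than 2-fold (51.3%, median -1.02). Of all measured genes 9.33% were, and of those of at least 50 TPM 30.8%, with a median of -0.52. Both comparisons use the same BM monocytes, so their values are not independent.

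On the scale of mean TPM the differences were much smaller. The log2 ratio of mean TPM, with 1 added to both means, had a median over the 78 genes of -0.39 from cMoP to BM monocytes and of -0.34 from BM to blood monocytes. Lower by more than 2-fold were 11 and 6 of the genes, shares of 14.1% and 7.69%, which are below the 23.9% and 23.5% of all measured genes. Of the 72 with at least 50 TPM the shares were 12.5% and 5.56%, against 15% and 17% of all genes at that level. Without the libraries that stand apart the first count was 18 of 78 in place of 11 (23.1%, against 24.1% of all measured genes) and, at 50 TPM or more, to 15 of 72 (20.8%, against 16.8%), so that the share of the respiratory genes at that level was then above that of all genes. The second count stayed at 6 (against 23.8%). Higher by more than 2-fold were Atp5sl in the first and Ndufb2 in the second comparison, against 15.6% and 16% of all measured genes (21.1% and 10.9% at 50 TPM or more). In 13 genes of the first and 16 of the second comparison (16.7% and 20.5%, against 23.9% and 17.9% of all measured genes) the scales had opposite signs, each time with a lower mean log level and a higher mean TPM. Among those described below these were Atp5c1, Atp5sl, Cox4i1, Cox6b2, Cox7a2l, Ndufs7 and Uqcrfs1 in the first step and Atp5g1, Cox4i1, Cox7b, Cox8a, Sdhc and Uqcrh in the second. Among cells above 1 TPM, the median level of a gene had a log2 ratio with a median of -0.68 over 76 genes and -0.21 over 75 genes that had at least 5 such cells on both sides. Over measured genes of at least 50 TPM the same medians were -0.34 and -0.14. The share of cells with the transcript differed by a median of -10.1 and -14.9 percentage points. Over all measured genes this was -11.2 and -2.63 points, and over those of at least 50 TPM -12.4 and -7.02, so that the first value was no further from 0 than for other genes. TPM from 1 cell do not tell an absent transcript from one that was missed.

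Genes per cell differed between the populations too, and within BM monocytes the number of these genes above 1 TPM went with the number of all genes above 1 TPM (Pearson r = 0.71, Spearman rho = 0.75, n = 57 cells, which share both counts' depth). Among cells with 4500 to 6000 genes that do not stand apart, 7 cMoP and 33 BM monocytes, 72 of 78 genes were lower in BM monocytes, 54 by more than 2-fold (69.2%, against 23.9% of all measured genes), and the median difference was -1.41. Among the 33 BM and 14 blood monocytes in that range, 67 were lower and 41 by more than 2-fold (52.6%, against 13.6% of all measured genes), with a median of -1.08 against -0.10. Gene numbers still differed within the range, with medians of 5736 in the 7 cMoP, 4970 in the BM and 4607.5 in the blood monocytes. With the 10 cMoP of that range that stand apart included, the BM monocytes were higher, with a median of 0.75.

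**Figure D3:**
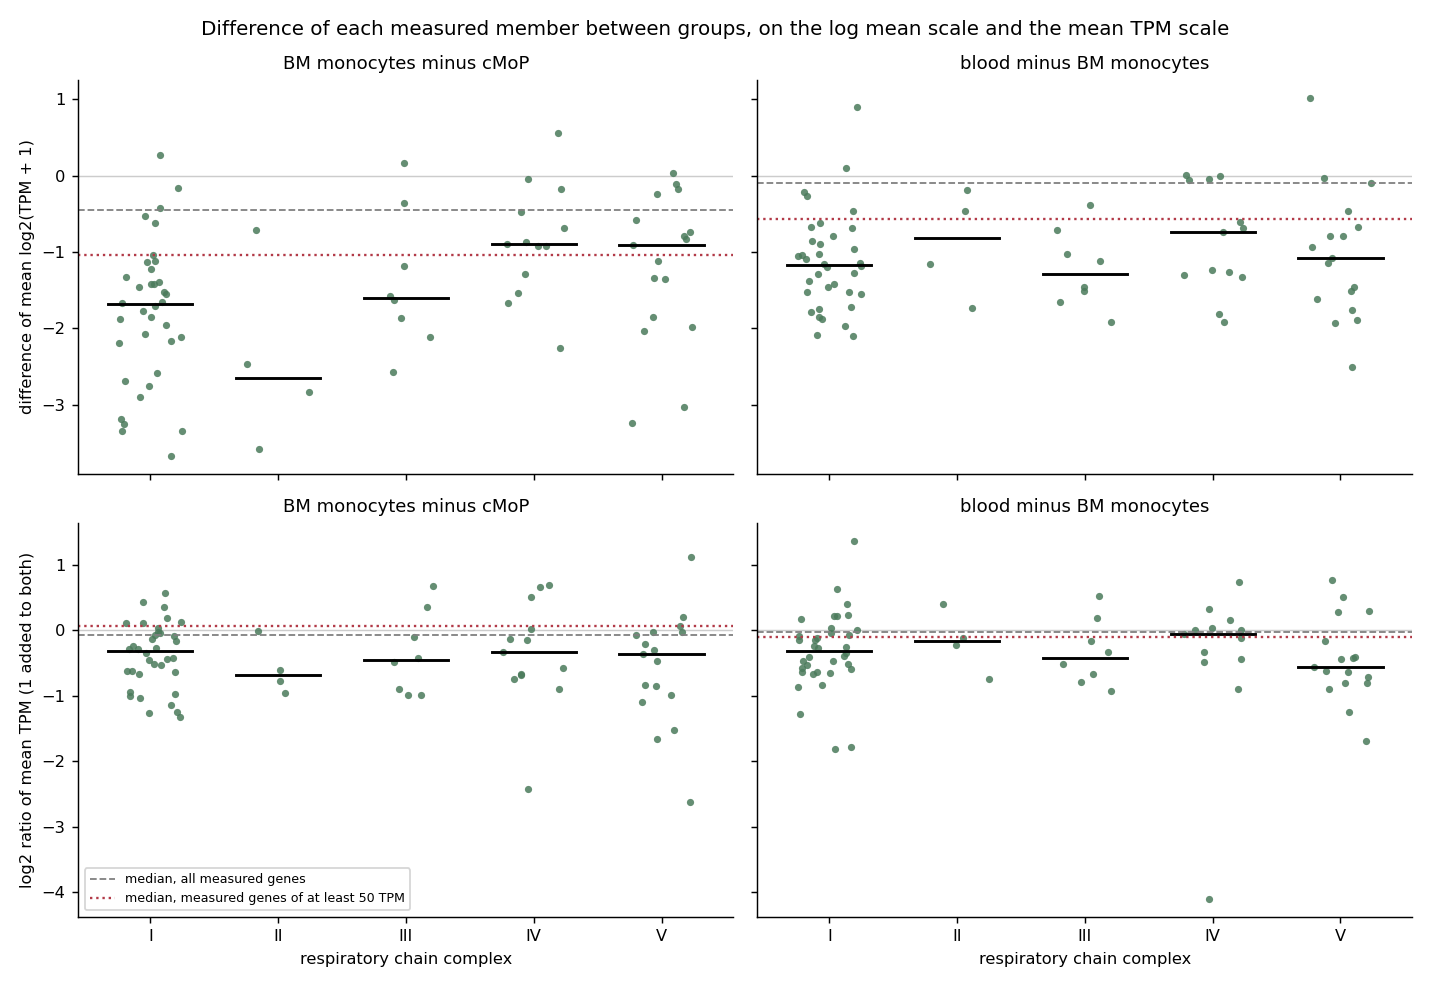
Difference of each measured gene between populations by complex, as the difference of mean log2(TPM + 1) (upper panels) and as log2 of the ratio of means (lower panels); points are genes, black bars medians of a complex, and the dashed and dotted lines medians of all measured genes and of those of at least 50 TPM. Complex II lies lowest from cMoP to BM monocytes (median -2.65), and the medians lie nearer to 0 in the lower panels.

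Complex I, the NADH dehydrogenase, had the most members past 2-fold lower in BM monocytes against cMoP, 31 of 36 (86.1%), median -1.68. Of all measured genes 30.8% were past 2-fold lower, and of those of at least 50 TPM 51.2%. In blood against BM monocytes 24 of 36 were (66.7%, against 9.66% and 32.1%), with a median of -1.16. On the ratio of means complex I had 6 (16.7%) and 3 (8.33%) past 2-fold lower, against 23.9% and 23.5% of all measured genes. Its 7 nuclear core subunits, which carry the flavin and the iron-sulphur clusters of the electron path, were all lower by more than 2-fold in the first comparison, with a median of -2.59, against 24 of the 29 other members with a median of -1.66. Ndufv1, which holds the flavin site, ran from 0 through a median of 85.6 to 673 TPM in cMoP, from 0 through 0 to 907 in BM monocytes and from 0 through 0 to 1291 in blood monocytes. The share of cells above 1 TPM was 83.3% among cMoP (95% exact interval 72.1% to 91.4%), 42.1% among BM monocytes (29.1% to 55.9%) and 23.7% among blood monocytes (11.4% to 40.2%). The differences were -3.25 and -0.86 on the log2 scale, and the ranges of the 3 populations overlapped.

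Ndufs1, the largest iron-sulphur subunit, ran from 0.46 through 114 to 1735 TPM in cMoP, from 0 through 1.69 to 790 in BM monocytes and from 0 through 0 to 260 in blood monocytes. Its mean TPM was 157, 70.5 and 19.4, so that it was lower on both scales, with differences of -3.35 and -1.19 and log2 ratios of means of -1.15 and -1.81. The SD over cells was 2.37, 2.95 and 2.26 on the log2 scale. Ndufv2 was above 1 TPM in 95.5%, 61.4% and 42.1% of cells, with differences of -2.90 and -1.74, and Ndufs3 in 90.9%, 52.6% and 28.9%, with differences of -2.59 and -0.96. In the cells that had it, Ndufs3 was not lower in blood, where its median in cells above 1 TPM was 188 TPM, against 34.8 in BM monocytes and 96.5 in cMoP.

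Ndufs7 and Ndufs8, a pair of iron-sulphur subunits of the peripheral arm, differed between the scales. Ndufs7 ran from 0 through 179 to 779 TPM in cMoP, from 0 through 63.1 to 1185 in BM monocytes and from 0 through 27.2 to 932 in blood monocytes. Its difference from cMoP to BM monocytes was -1.42, or -1.79 without the libraries that stand apart, while the log2 ratio of its means was 0.11 and -0.02. It was above 1 TPM in 97.0%, 77.2% and 73.7% of cells, with a difference of -0.89 in the second step. Ndufs8 had medians of 185, 38.98 and 18.8 TPM, differences of -1.88 and -0.67, and log2 ratios of means of -0.64 and -0.05.

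Among the 29 accessory members, Ndufa5 and Ndufa12 had the lowest differences from cMoP to BM monocytes. Ndufa5, a subunit of the peripheral arm, ran from 0 through 133 to 836 TPM in cMoP, from 0 through 0 to 427 in BM monocytes and from 0 through 0 to 892 in blood monocytes. It was above 1 TPM in 95.5%, 47.4% and 28.9% of cells and had differences of -3.67 and -1.18. Ndufa12 had medians of 228, 15.6 and 0 TPM and differences of -3.35 and -1.15. For both, the cMoP median lay above both monocyte medians, though all ranges began at 0 and overlapped.

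A few accessory members departed from this order. Ndufa6, an accessory subunit with an LYR motif, was above 1 TPM in 95.5%, 100% and 89.5% of cells, with medians of 249, 242 and 184 TPM. Its difference was 0.27 from cMoP to BM monocytes, or -0.41 with the libraries that stand apart left out, and -1.10 from BM to blood monocytes. Ndufb2, a small membrane-arm subunit, had means of 79.5, 38.2 and 99.9 TPM and medians of 63.4, 5.42 and 17.3, with differences of -2.19 and 0.91. Ndufc1 had differences of -2.69 and 0.10. Ndufb9 was lower by about the same amount in each step, with medians of 250, 87.8 and 3.21 TPM and differences of -1.86 and -2.09. Ndufb8, with the second highest mean of complex I, had means of 543, 429 and 273 TPM and differences of -1.66 and -1.88.

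Complex II, succinate dehydrogenase, is also an enzyme of the citric acid cycle, with a flavoprotein (Sdha), an iron-sulphur subunit (Sdhb) and a pair of membrane anchors (Sdhc and Sdhd). Its genes lie at chr13:74322254-74350280, chr4:140961203-140979193, chr1:171127165-171150603 and chr9:50596357-50603812 in GRCm38. All 4 were lower in BM monocytes than in cMoP, 3 of them by more than 2-fold (75%), with a median of -2.65. Of all measured genes 30.8% were past 2-fold lower, and of those of at least 50 TPM 51.2%. On the ratio of means 0 of the 4 were, with a median of -0.69. Sdha ran from 0 through 206 to 794 TPM in cMoP, from 0 through 5.59 to 1309 in BM monocytes and from 0 through 3.43 to 984 in blood monocytes. Cells above 1 TPM made up 98.5% (91.8% to 100%), 59.6% (45.8% to 72.4%) and 52.6% (35.8% to 69.0%) of the 3 populations. Its differences were -3.58 and -0.46, so that the step between the BM populations was the larger. In the 55 cMoP that do not stand apart its lowest value was 2.47 TPM, and its difference to BM monocytes was -3.90.

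The membrane anchors were alike in the first step and not in the second. Sdhc had medians of 146, 1.13 and 1.56 TPM, from 0 to 626, 738 and 1125, and differences of -2.83 and -0.18. Sdhd had medians of 262, 51.2 and 1.31 TPM, from 0 to 2596, 1497 and 1429, and differences of -2.46 and -1.73. In the second step their log2 ratios of means were 0.40 and -0.74, of opposite sign. Sdhb, the iron-sulphur subunit, differed from the other 3 in the first step. It was above 1 TPM in 86.4%, 89.5% and 73.7% of cells, had means of 315, 311 and 266 TPM, from 0 to 912, 1139 and 1303, and differences of -0.72 and -1.16. The first of these was -1.63 without the libraries that stand apart.

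Complex III, the cytochrome bc1 complex, had 6 of 8 members (75%) past 2-fold lower in each comparison, with medians of -1.60 and -1.28. Of all measured genes 30.8% and 9.66% were past 2-fold lower, and of those of at least 50 TPM 51.2% and 32.1%. On the ratio of means 0 of the 8 were in each comparison, with medians of -0.46 and -0.42. Uqcrh, the acidic hinge protein that contacts cytochrome c1, was the only member with a higher mean log level in BM monocytes than in cMoP. It ran from 0 through 369 to 1079 TPM in cMoP, from 0 through 429 to 1758 in BM monocytes and from 0 through 306 to 2588 in blood monocytes. Its means of 391, 498 and 564 TPM were in the opposite order to most members, while its share of cells above 1 TPM was 98.5%, 98.2% and 84.2%. The differences were 0.17 and -0.71, and -0.24 and -0.51 without the libraries that stand apart, so the direction of the first depends on them. Uqcrfs1, the Rieske iron-sulphur protein, was the other member within 2-fold in the first step, with differences of -0.36 and -1.51, and its means of 77.6, 125 and 65.4 TPM gave log2 ratios of 0.68 and -0.92. Uqcrc1, a core protein of the complex, had medians of 373, 144 and 20.1 TPM and differences of -1.57 and -1.45. The largest difference of the first comparison was that of Uqcrc2, the other core protein, at -2.57, and of the second that of Uqcr10, at -1.92. These 3, Uqcrfs1, Uqcrc2 and Uqcr10, were chosen after their values were seen.

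Complex IV, cytochrome c oxidase, had the median differences of mean log levels nearest to 0. Those of complex V in the first step (-0.91) and of complex II in the second (-0.81) were close to them. In BM monocytes against cMoP 4 of the 13 measured genes of complex IV (30.8%) were past 2-fold lower, with a median of -0.89. This was no more than the 30.8% of all measured genes and below the 51.2% of those of at least 50 TPM. Without the libraries that stand apart the count was 9 of 13 (69.2%, against 35.1% and 59.9%), with a median of -1.29. In blood against BM monocytes 6 of 13 were past 2-fold lower (46.2%, against 9.66% and 32.1%), with a median of -0.73. That second median is the value of Cox6b2, seen in 9 BM and 3 blood monocytes, and the 13 include Cox4i2, listed at 0 in all monocytes. The place of complex IV nearest to 0 in that step rests on these genes, which few or no monocytes held. On the ratio of means the first-step median was -0.34, against -0.32 for complex I. Some of its ubiquitous subunits differed little. Cox4i1, the general isoform of the largest nuclear subunit, was above 1 TPM in all 161 cells. It ran from 5.32 through 872 to 2287 TPM in cMoP, from 8.19 through 864 to 2225 in BM monocytes and from 89.8 through 791 to 2510 in blood monocytes. With means of 870.6, 883.7 and 887.9 TPM and differences of -0.04 and -0.05, its 3 distributions overlapped almost throughout. Cox8a was likewise above 1 TPM in all cells, with medians of 292, 215 and 201 TPM and differences of -0.89 and -0.06. Cox6a1 was highest in BM monocytes, with medians of 782, 1130 and 466 TPM and differences of 0.55 and -1.32. Its first difference was -0.02 without the libraries that stand apart, with a log2 ratio of means of 0.37.

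Other ubiquitous subunits had lower mean log levels in each step, Cox7c excepted. Cox6b1, which faces the intermembrane space, had medians of 410, 398 and 83.5 TPM, from 0 to 1254, 1181 and 647, and differences of -0.68 and -1.91, the second the largest of the complex. Cox7b had medians of 405, 154 and 91.4 TPM and differences of -1.67 and -0.61, though its mean was 233 TPM in BM and 259 in blood monocytes. Cox7a2, the widespread form of subunit 7a, had 247, 87.0 and 32.6 TPM with differences of -1.54 and -1.26. Cox7c, a small ubiquitous subunit chosen after its values were seen, had medians of 305, 117 and 84.4 TPM and means of 293, 157 and 263, with differences of -2.25 and 0.01 and log2 ratios of means of -0.90 and 0.74. Ndufa4, which carries a complex I symbol but is now regarded as a complex IV subunit, had the highest mean of the genes counted under complex I. It had medians of 583, 367 and 182 TPM, from 0 to 1900, 1274 and 1142, and differences of -1.42 and -1.05.

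Of the tissue isoforms of complex IV, Cox6b2 was seen in 39.4% of cMoP, and the others were rare or listed at 0. Each of those present was above 1 TPM in a larger share of cMoP than of monocytes. Cox4i2, the lung-type and hypoxia-responsive isoform, was above 1 TPM in 8 of 66 cMoP (12.1%), with at most 128 TPM, and listed at 0 in all monocytes. Taking 3 cells as the limit that a count of 0 allows, the monocytes could hold shares of up to 5.26% of BM and 7.89% of blood monocytes. The heart and muscle isoforms Cox6a2 and Cox7a1 were above 1 TPM in 3 and 5 cMoP, with at most 83.3 and 88.7 TPM, and listed at 0 in all monocytes. Cox6b2, the testis-type isoform, was above 1 TPM in 26 cMoP, 9 BM monocytes (15.8%) and 3 blood monocytes (7.89%), with highest values of 95.9, 491 and 5.05 TPM. In the cells with either gene, Cox4i1 made up at least 89.5% of the pair in each cMoP, and Cox6b2 exceeded Cox6b1 in 2 of 55 BM monocytes. Cox7b2, Cox8b, Cox8c and Ndufa4l2 were listed at 0 in all 161 cells.

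Cox7a2l, a Cox7a paralog, had a different course from Cox7a2. It ran from 0 through 138 to 878 TPM in cMoP, from 0 through 84.2 to 1708 in BM monocytes and from 0 through 19.2 to 1494 in blood monocytes. Its means were 188, 304 and 292 TPM, and its differences -0.18 and -1.30. Of the summed mean TPM of Cox7a1, Cox7a2 and Cox7a2l it made up 43.8%, 67.0% and 71.1%, and per cell a median of 41.5%, 56.3% and 63.2%. The spread per cell was wide, with an SD of 27.2, 39.1 and 42.6 percentage points, and shares from 0% to 100% in each population.

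Complex V, the ATP synthase, had 8 of 17 members (47.1%) past 2-fold lower in BM monocytes against cMoP, with a median of -0.91. That median is the value of Atp5s, which counted as measured through cMoP only. Of all measured genes 30.8% were past 2-fold lower, and of those of at least 50 TPM 51.2%. In blood against BM monocytes 9 of 17 were (52.9%, against 9.66% and 32.1%), with a median of -1.08. With the libraries that stand apart left out the counts were 12 with a median of -1.51 and 7 with a median of -0.90. Atp5b, the catalytic beta subunit, ran from 2.42 through 864 to 2881 TPM in cMoP, from 0 through 369 to 1820 in BM monocytes and from 0 through 148 to 1895 in blood monocytes. Its means of 962, 533 and 402 TPM gave differences of -1.85 and -1.08, with ranges that overlapped. Atp5c1, the gamma subunit of the central stalk, had medians of 731, 707 and 454 TPM, from 1.01 to 1764, from 0 to 3273 and from 0 to 2045, and differences of -0.24 and -1.61. The larger difference of Atp5b lay in the first step and that of Atp5c1 in the second. Atp5s and Atp5sl carry ATP synthase symbols but are not structural subunits. Atp5s was above 1 TPM in 17 cMoP, 1 BM monocyte and no blood monocyte, and Atp5sl in 36, 13 and 6 cells.

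Subunit c, which forms the rotating ring of the ATP synthase in the membrane, is encoded by Atp5g1, Atp5g2 and Atp5g3, whose upstream sequences are given above. The genes lie at chr11:96068852-96075670, chr15:102662864-102672352 and chr2:73908447-73911326 in GRCm38, each on the minus strand. Their summed TPM had a median of 1149 in cMoP and of 352 and 391 in the BM and blood monocytes. Atp5g1 ran from 0 through 478 to 1462 TPM in cMoP, from 0 through 64.7 to 651 in BM monocytes and from 0 through 36.7 to 1729 in blood monocytes, with differences of -3.04 and -0.03. Atp5g3 ran from 0 through 511 to 1349, from 0 through 51.4 to 986 and from 0 through 102 to 2676 TPM, with differences of -3.25 and 1.02. In the 55 cMoP that do not stand apart Atp5g1 was at 228 TPM or more, and its first difference was -3.68.

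Atp5g2 had the lowest mean TPM of the 3 in each population, at 163, 90.8 and 37.7, though in BM monocytes its median was above that of Atp5g3. It ran from 0 through 156 to 462 TPM in cMoP, from 0 through 56.8 to 514 in BM monocytes and from 0 through 1.43 to 363 in blood monocytes. It was above 1 TPM in 95.5% (87.3% to 99.1%), 82.5% (70.1% to 91.3%) and 52.6% (35.8% to 69.0%) of cells, with differences of -1.99 and -2.51. Its share of subunit c TPM in a cell had medians of 13.6%, 16.001% and 0.449% in the order of the stages, while that of Atp5g3 had 42.6%, 25.8% and 49.3% and that of Atp5g1 40.6%, 37.4% and 38.98%. Of the summed mean TPM, Atp5g2 made up 13.99%, 21.5% and 6.77%. Single cells were mixed in cMoP and often dominated by 1 gene in monocytes: the SD of the Atp5g1 share was 19.8 percentage points for cMoP, 34.3 for BM monocytes and 37.1 for blood monocytes. Among 66 cMoP there were 3 cells, among 57 BM monocytes 12 and among 38 blood monocytes 3 in which Atp5g2 was the most abundant of the 3.

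**Figure D4:**
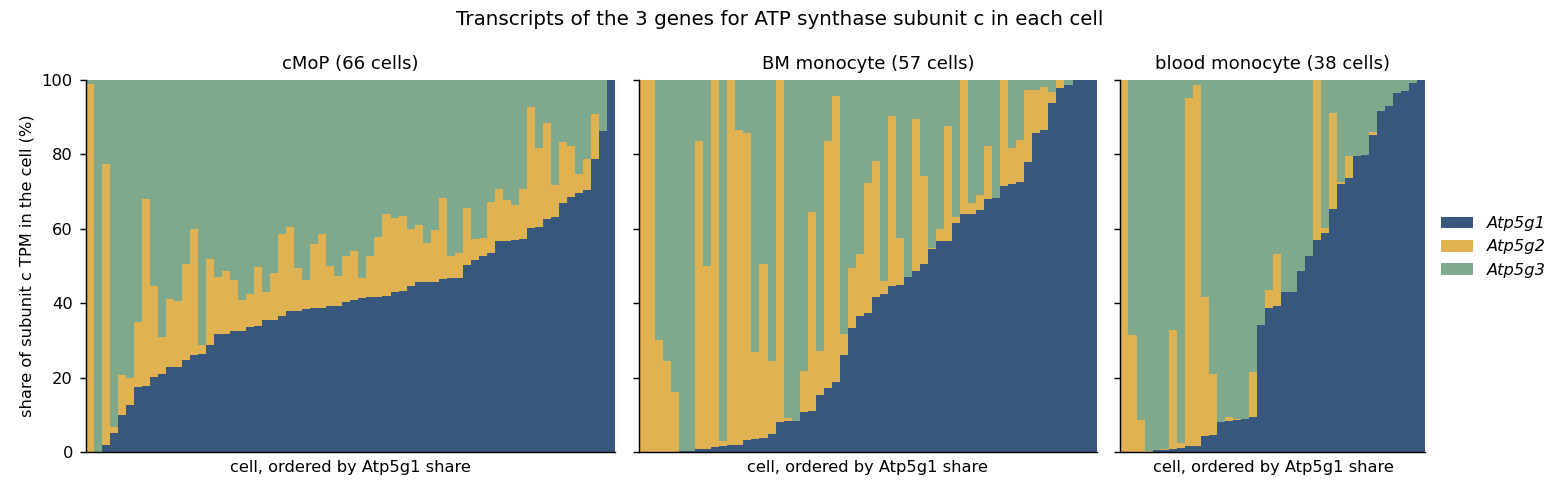
Share of Atp5g1, Atp5g2 and Atp5g3 in the summed subunit c TPM of each cell (y axis, %), with cells of a population side by side in the order of their Atp5g1 share. Most cMoP hold all 3 transcripts, whereas in many monocytes 1 gene fills nearly the whole column, and Atp5g2 has a median share of 0.449% in blood monocytes.

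The mitochondrially encoded subunits, with which these gene products assemble, were measured in the same cells. All 13 were lower in BM monocytes than in cMoP, 12 by more than 2-fold (against 30.8% of all measured genes), with a median of -1.94, led by mt-Nd3 (-3.16) and mt-Nd4l (-3.01). The log2 ratio of means was past 2-fold lower for 12 as well (median -1.46), against 23.9% of all measured genes. Leaving out the libraries that stand apart, 11 of which were chosen by their mitochondrial share, 12 of 13 were lower, all 12 by more than 2-fold (against 35.1%), with a median of -1.54. On the ratio of means only 3 were then past 2-fold lower (23.1%, close to the 24.1% of all measured genes, median -0.90). Between BM and blood monocytes 6 were lower and 7 higher, none by more than 2-fold (against 9.66% of all measured genes lower and 1.96% higher). The median was 0.00, while that of the 78 nuclear genes was -1.14. Summed TPM of the 13 had medians of 46065, 24456 and 28158. The ratio of nuclear to mitochondrially encoded TPM per cell had medians of 0.541, 0.663 and 0.524, and ran from 0.00661 to 5.45 in cMoP, from 0.303 to 2.59 in BM monocytes and from 0.0112 to 2.73 in blood monocytes. Within cMoP the 2 sums were inversely related over all 66 cells (Pearson r = -0.85, Spearman rho = -0.55) and hardly over the 55 that do not stand apart (r = -0.15, rho = -0.26), and both sums are parts of 1 fixed total.

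**Figure D5:**
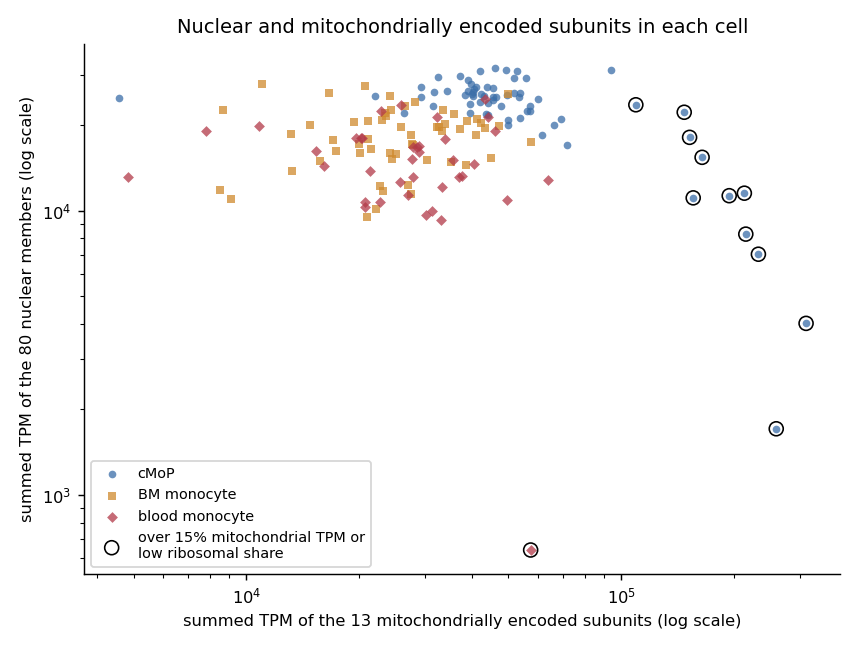
Summed TPM of the 80 nuclear genes (y axis, log scale) against that of the 13 mitochondrially encoded subunits (x axis, log scale) in each cell, coloured by population; rings mark the 12 libraries that stand apart. The ringed cMoP reach 311066 TPM of mitochondrially encoded subunits with as little as 1711 TPM of the nuclear genes.

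Genes that build the complexes had lower mean log levels in BM monocytes than in cMoP, as had 73.5% of all measured genes (30.8% past 2-fold). This held for 13 of 13 measured assembly factors of complex I (median -1.33, 7 past 2-fold), 6 of 6 of complex III (median -1.23, 3 past 2-fold), 18 of 18 of complex IV (median -1.46, 13 past 2-fold) and 5 of 5 of complex V, regulators included (median -1.47, 3 past 2-fold). The lowest among them were the complex I factor Ndufaf2 (-4.75, above 1 TPM in 87.9% of cMoP and 17.5% of BM monocytes) and Atpif1, the ATPase inhibitor (-4.21, mean 1075 TPM in cMoP and 124 in BM monocytes). Sdhaf2, the factor that adds flavin to Sdha, was the only measured complex II factor and differed by 0.06. Its mean TPM was 11.4 in cMoP and 42.6 in BM monocytes, a log2 ratio of means of 1.82. On the ratio of means the medians of the 4 lists were -0.77, 0.13, -0.26 and -0.50, and 4 of the 6 complex III factors, Uqcc1, Uqcc3, Bcs1l and Lyrm7, were higher. From BM to blood monocytes the medians of the differences were nearer to 0, at -0.47, -0.35, -0.33 and -0.13, with 11 of 13, 6 of 6, 15 of 18 and 3 of 5 lower and 2, 1, 1 and 1 past 2-fold, and Sdhaf2 had -1.23. Of all measured genes 59.8% were lower in this second step and 9.66% past 2-fold. The 1 of 18 of complex IV (5.56%) was below that share, and the 3 of 5 of complex V (60%) were close to it. The medians of the ratios of means were not nearer to 0 there for complexes I, III and V, at -0.77, -1.23 and -0.77, while complex IV had -0.21. Without the libraries that stand apart the first-step medians of the differences were -1.46, -1.40, -1.80 and -1.70 (35.1% of all measured genes past 2-fold lower), and Sdhaf2 turned to -0.27.

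Subunits and electron carriers that the symbols do not catch were examined as a list of 6. Ndufab1, Cyc1, Cycs, Etfa, Etfb and Etfdh were lower by more than 2-fold in BM monocytes, 6 of 6, with a median of -2.81, against 30.8% of all measured genes. In blood against BM monocytes 4 of 6 were lower, 2 of them by more than 2-fold, with a median of -0.69. Of all measured genes 59.8% were lower in that step, and 9.66% by more than 2-fold. Cyc1, the cytochrome c1 of complex III, had a difference of -3.03, and Etfb, the beta subunit of the electron transfer flavoprotein, -3.11. Of the hypoxia-inducible-domain genes, Higd1a had -1.62 and 0.37 and Higd2a -0.86 and -1.16. The measured regulators of respiratory genes were lower in 10 of 10 cases, 8 by more than 2-fold, with a median of -1.42. Of all measured genes 73.5% were lower in this step, and 30.8% by more than 2-fold. Among them Nrf1, the gene of NRF-1, had -1.75 (69.7% against 40.4% of cells), and the coactivator gene Pprc1 -2.23. From BM to blood monocytes 7 of the 10 regulators were lower (70%, against 59.8% of all measured genes), none by more than 2-fold (against 9.66%), with a median of -0.08. Without the libraries that stand apart the first-step medians of the carriers and of the regulators were -3.30 and -1.67, with 6 of 6 and 8 of 10 past 2-fold lower (against 35.1% of all measured genes). On the ratio of means with all libraries these medians were -0.84 and -0.70.

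The members also varied within BM monocytes. Of the 57 cells, 18 had more than 10 TPM of Top2a, a topoisomerase gene of dividing cells. These had a median of 68.5 of the 78 genes above 1 TPM and 19814 TPM in sum, against 58 genes and 17380 TPM in the other 39, and they also had more of all genes above 1 TPM, 5236 against 4405. Of the cMoP, 63 of 66 had more than 10 TPM of Top2a, and of the blood monocytes 6 of 38. Leaving out monocytes above 10 TPM of Top2a, 25 genes in place of 47 were past 2-fold lower in blood against BM monocytes (32.1%, against 7.06% of all measured genes), and the part of cell division in the difference was not tested further. Within cMoP the summed TPM of complexes I and V went together over cells (Pearson r = 0.83, Spearman rho = 0.69, n = 66, and r = 0.61, rho = 0.55 over the 55 that do not stand apart); within blood monocytes r was 0.36 and rho 0.21 (n = 38). These sums share the total of their cell.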

How the data were processed

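Single cells were captured on the C1 chip, and the authors deposited a table of TPM per gene and cell, made with RSEM 1.2.19 on GRCm38 per the submitters' processing notes; the aligner is not given in the sources used here, nor is the annotation. RSEM divides reads between similar sequences, so short subunit genes with processed pseudogenes are uncertain. TPM sum to 997939 to 999955 per cell, so 1 abundant transcript lowers all others. Populations were taken from the labels of 161 libraries, each column matched 1 library, and no pair of columns was identical. No animal is named, so each population is 1 sample and no test was run.

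The genes and lists were chosen with earlier results of these data known. Measured genes exceeded 1 TPM in 10% or more of the cells of any population (14003 genes). Differences are of the mean over cells of log2(TPM + 1), which understates low genes; a difference past 1 (2-fold) takes the place of a call. Shares carry 95% exact (Clopper-Pearson) binomial intervals and, for 0 cells, the limit of 3 cells; both cover the counting of cells only. Named with values were complex II, tissue isoforms, core subunits of complex I, the 2 members of complexes I, III, IV and V with the highest mean, and the 3 largest differences per comparison and direction, with up to 3 genes of each other list. The comparison with genes of at least 50 TPM and the level in cells above 1 TPM were chosen after seeing the data. Gene positions are from GENCODE M21. Python 3.11.15, numpy 2.4.6, pandas 2.3.3 and scipy 1.17.1 were used, and the functions were tested on simulated data. Alternatives were other pseudocounts, filters, scalings, subsets of libraries and the ratio of means. The values of 1 member are not reported here; it stays in the counts and medians.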

Additional observations from a re-analysis of the deposited data

How the results depend on the processing

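Each result was recomputed under other pseudocounts, filters, scalings, the ratio of mean TPM and subsets of libraries. Medians, counts and shares were labelled as kept in 371 of 392 cases. Values of single named genes were kept in 945 of 1008, with 50 moved and 13 reversed. A median or share was kept if its sign held and it moved by less than the SD over cells, and a count if it changed by less than a set factor. This tolerance is wide. With an SD of 1.61, the median of -1.44 from cMoP to BM monocytes counted as kept at -0.39 on the ratio of means. A single-gene value within 2-fold counted as kept unless it moved by more than the SD over cells, also where its sign changed. With the log2 ratio of mean TPM, members past 2-fold lower numbered 11 from cMoP to BM monocytes, with 1 higher, and 6 from BM to blood monocytes, and Ndufs7 (0.11) reversed in the first. Leaving out the libraries that stand apart as well, an alternative chosen after seeing the data, gave 18 and 6, against 24.1% and 23.8% of all measured genes. From BM to blood monocytes a pseudocount of 10 left 17 past 2-fold lower (21.8%, against 2.92% of all measured genes) and 0 higher, a pseudocount of 0.1 and median-ratio scaling gave 2 higher each, and leaving out monocytes with Top2a above 10 TPM left 25 lower. Median-ratio scaling moved the median of all measured genes from -0.45 to -0.36 and from -0.10 to -0.02, with 71 and 68 of the 78 members lower.

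Among cells with 4500 to 6000 genes (17 cMoP, 10 of which stand apart), the cMoP to BM monocyte medians reversed to 0.75 over all members, 0.58 for complex I, 0.36 for II, 0.97 for III, 0.54 for IV and 1.08 for V, with 6 members past 2-fold lower and 30 higher, against 12.9% and 11.7% of all measured genes (median -0.05). Reversed there were Sdhd (0.94), Cox7a2 (0.097), Ndufa4 (0.41), Ndufs7 (0.77), Ndufs8 (1.77), Ndufb8 (0.91), Uqcrc1 (0.80) and Ndufb9 (0.61). Leaving out those that stand apart, 7 cMoP remained and the medians were negative again, with 2 members past 2-fold higher. In either case, from BM to blood monocytes 2 members were past 2-fold higher, Cox7a2l was at 0.17 and Ndufa6 at 0.086. The cause was not tested beyond these subsets. No paired analysis was possible because each population is 1 sample; numbers in the library names recur between populations, but no label gives them as replicates or ties cells by them. Sequencing depth is not known for these cells, so a transcript under 1 TPM cannot be told from one that was missed.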
